A study of Mus musculus with 24 samples.

Results

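A set of 7 genes that are usually read as markers of somatic cells were followed in single ovulated mouse oocytes. They were 3 genes of granulosa cells (Cyp19a1, Kitl, Nr5a2), 3 of macrophages (Csf1r, Laptm5, Cd68) and 1 of epithelia (Cdh1), 7 of 25965 entries in the table. They were chosen by their read levels in these same oocytes (reads in all or most of them), so their presence and levels are a description and were not tested. Inha, Tnfaip6 and Ptx3, genes of cumulus and granulosa cells, served as markers of carried-over somatic RNA. The study compared oocytes of mice hemizygous for a Thy1.2-AMH transgene (Thy1.2-AMHTg/0), in which a Thy1.2 promoter drives anti-Müllerian hormone, with oocytes of wild-type mice (Thy1.2-AMH0/0). All were ovulated naturally by adult females, taken from the oviduct, and stripped of cumulus with hyaluronidase and of the zona with acid Tyrode's solution. Values of 10 transgenic and 11 wild-type oocytes, from 4 females of each genotype with 2 or 3 oocytes each, and of 1 kit control RNA library were analysed. The females were sequenced on 4 lanes, with 1 transgenic and 1 wild-type female on each, and the ages of the adults are not stated. Oocyte libraries held 20.4 M to 33.3 M reads (M, 1000000).

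As background, the oocyte grows inside a follicle and is joined to granulosa cells that feed it and exchange signals with it. Aromatase, the product of Cyp19a1, turns androgens into oestrogens; KIT ligand, the product of Kitl, binds the receptor KIT on the oocyte surface; and NR5A2 is a nuclear receptor that granulosa cells need for ovulation. CSF1R is the receptor through which CSF1 and IL34 act on macrophages, LAPTM5 and CD68 are lysosomal membrane proteins of blood cells and macrophages, and E-cadherin, the product of Cdh1, holds epithelial cells together and is also a maternal product of the mouse egg that later joins the cells of the embryo.

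Reference genes of the oocyte were present in all 21 oocytes: all 12 listed reached 1 RPM in each. Medians were 8545 RPM for the oocyte linker histone gene H1foo and 4916 RPM for the growth factor gene Gdf9. The lowest median of the 12 was 78.55 RPM, for the zona protein gene Zp2. The carry-over markers were at 0 in most oocytes, while the 7 genes were not. Inha had reads in 2 of 21 oocytes, and Tnfaip6 and Ptx3 each in 1 of 21. One wild-type oocyte of lane 2 held 13.7 RPM of Inha, 8.39 RPM of Tnfaip6 and 3.54 RPM of Ptx3, where RPM scales the count of a gene to 1000000 reads in its library. The second oocyte with reads, a wild-type one of lane 1, held 0.304 RPM of Inha. The kit control RNA held 20.5 RPM of Inha, 25.2 RPM of Tnfaip6 and 0 reads of Ptx3. In the 10 transgenic oocytes each marker had 0 reads. About 3 reads is the 95% upper limit for a count of 0, and would be 0.0125 RPM for the 10 together (counting error only). The 6 genes other than Cd68 reached 1 RPM in all 21 oocytes, and Cd68 in 18. The choice had no numeric limit, and further somatic-type genes named below meet the same description.

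**Figure D1:**
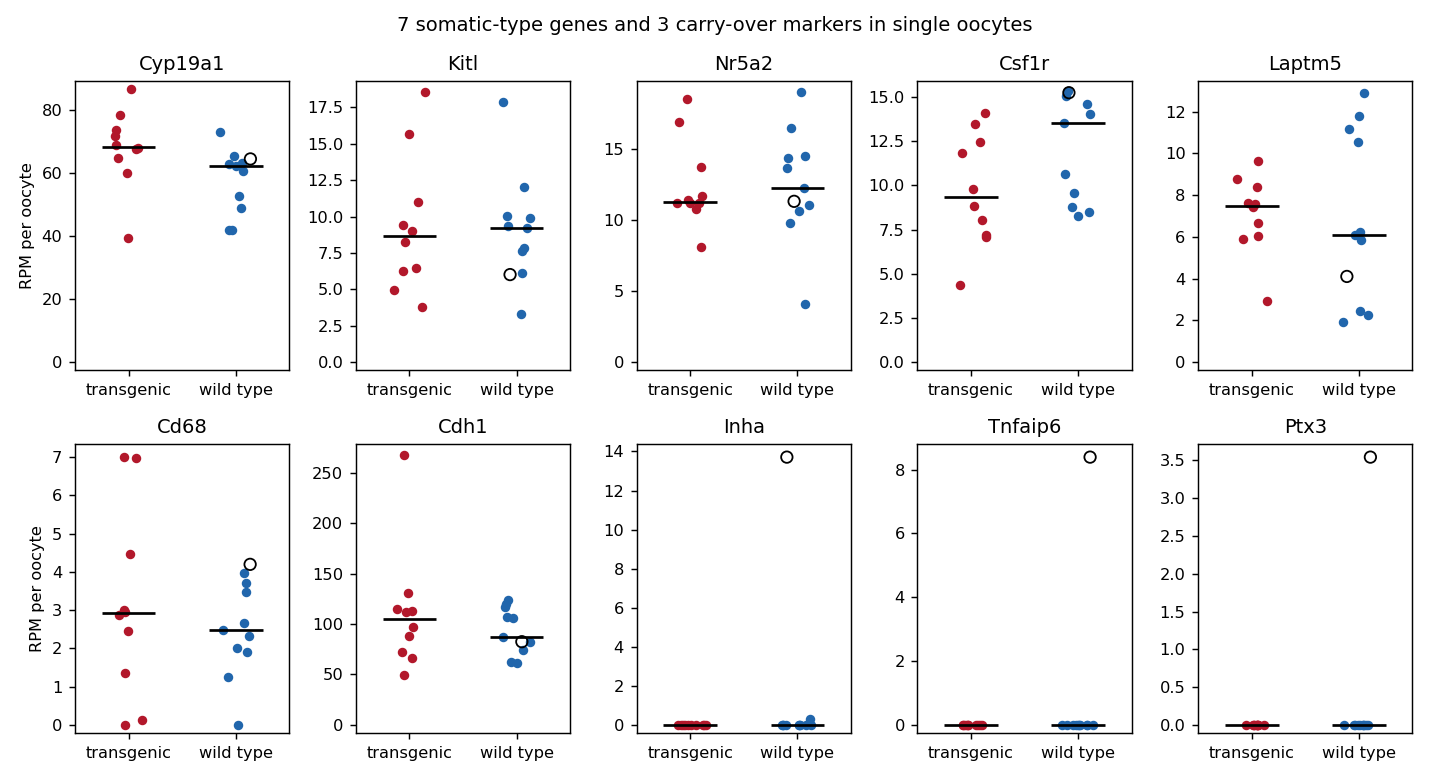
RPM of the 7 somatic-type genes and of the 3 carry-over markers in each oocyte, transgenic left and wild type right, with a line at the group median. The open circle is the wild-type oocyte of lane 2 with 13.7 RPM of Inha, which lies within the values of the other oocytes for each of the 7 genes.

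The oocyte rich in carry-over markers lay within the range of the others in all 7 genes. It held 64.5 RPM of Cyp19a1, against 39.4 to 86.9 RPM (median 64.0) in the 20 others. Its Kitl stood at 6.01 RPM, with 3.29 to 18.6 RPM in the others, and its Nr5a2 at 11.3 RPM, with 4.10 to 19.1 RPM in the others. Its Csf1r, at 15.2 RPM, was above 19 of the 20 others and below the highest of them at 15.4 RPM. Its Laptm5 (4.10 RPM), Cd68 (4.20 RPM) and Cdh1 (82.4 RPM) were above 4, 17 and 7 of the 20 others.

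Cyp19a1 was the steadiest of the 7. It lies on chromosome 9, 54165937 to 54193442 on the minus strand (coordinates are the table's, read as GRCm38). It stood at 39.4, 68.4 and 86.9 RPM (lowest, median, highest) in transgenic oocytes and at 42.0, 62.4 and 73.1 RPM in wild-type oocytes, and the groups overlapped. Its values rested on 811 to 2618 reads an oocyte, and its coefficient of variation was 19.4%, where counting alone gives 2.58%. The control RNA held 0 reads of it. Per kilobase of exon its median was 14.3 RPKM, above that of 76.0% of the genes tested, and the SD of its log2(RPM + 1) over oocytes (0.30) exceeded that of 15.0% of them. Genes of steroid synthesis and response were mixed: of 17 such genes listed, 6 reached 1 RPM in each oocyte, led by the oestrogen receptor gene Esr2 (median 87.5 RPM) and the reductase genes Hsd17b12 (66.9 RPM) and Hsd17b7 (59.5 RPM), with the electron carrier gene Fdx1 at 64.0 RPM. Beyond these leading genes, named after their values were seen, Cyp17a1, whose enzyme makes the androgens that aromatase uses, had 0 reads in all 21, and Cyp11a1, which opens the pathway, had reads in 6.

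The gene has several annotated starts and the deposited value covers the whole gene, so the start used in these oocytes is unknown. The stretches before the starts of 3 members are shown so that the sequence at which transcription of these members is annotated to begin can be read beside their levels. They are RefSeq windows of GRCm38.p6, from 250 bases before to 50 after a start, 5′ to 3′ in the direction of the gene, with TATAAA and its reverse complement in capitals. The Cyp19a1 window is that nearest to the deposited gene (chr9:54193694-54193993, minus strand), the Kitl window is chr10:100015571-100015870 and the Laptm5 window is chr4:130913066-130913365, both on the plus strand.
Cyp19a1: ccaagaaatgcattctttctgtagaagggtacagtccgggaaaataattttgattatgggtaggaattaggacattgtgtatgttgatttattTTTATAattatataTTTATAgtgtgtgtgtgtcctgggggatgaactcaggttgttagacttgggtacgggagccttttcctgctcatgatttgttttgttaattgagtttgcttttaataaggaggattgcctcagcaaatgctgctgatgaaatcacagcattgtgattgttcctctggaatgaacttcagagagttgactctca
Kitl: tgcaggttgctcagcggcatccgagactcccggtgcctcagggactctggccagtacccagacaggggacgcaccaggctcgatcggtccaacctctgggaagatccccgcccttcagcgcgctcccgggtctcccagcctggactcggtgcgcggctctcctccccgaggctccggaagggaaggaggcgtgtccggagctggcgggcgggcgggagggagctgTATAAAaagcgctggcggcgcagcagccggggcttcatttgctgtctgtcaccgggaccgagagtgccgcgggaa
Laptm5: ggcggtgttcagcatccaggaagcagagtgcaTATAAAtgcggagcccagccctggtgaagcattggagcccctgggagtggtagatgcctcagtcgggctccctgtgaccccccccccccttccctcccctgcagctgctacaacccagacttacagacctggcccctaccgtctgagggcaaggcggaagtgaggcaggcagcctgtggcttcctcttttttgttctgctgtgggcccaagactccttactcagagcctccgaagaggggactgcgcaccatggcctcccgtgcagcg
TATAAA was found on either strand in 5 of the 8 windows held for 5 of the members, and in 13.6% of all 32851 mouse windows of the same length. AAGGTCA, a string within the sites that NR5A receptors bind, was in 0 of the 8 and in 4.72% of all. In all 6 strings were searched, and TATAAA was picked for display after the matches were seen; a match is not a site in use.

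Kitl lies on chromosome 10, 100015630 to 100100413 (plus strand), and was more uneven between oocytes than Cyp19a1. It stood at 3.79, 8.64 and 18.6 RPM (lowest, median, highest) in transgenic oocytes and at 3.29, 9.21 and 17.8 RPM in wild-type oocytes, a 5.63-fold range over all 21. The groups overlapped, and its SD between sister oocytes was 0.62 on the log2(RPM + 1) scale, and between female means 0.30. The control RNA held 33.3 RPM. Its receptor gene Kit stood at 70.5 to 201.5 RPM (median 134 RPM), and the sheddase genes Adam17 and Adam10 had medians of 99.9 and 68.7 RPM. Of the 10 genes listed for KIT signalling 8 reached 1 RPM in each oocyte, led by the kinase subunit gene Pik3r1 at a median of 185 RPM.

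Nr5a2 lies on chromosome 1, 136843584 to 136960427 (minus strand). It stood at 8.13, 11.3 and 18.6 RPM in transgenic oocytes and at 4.10, 12.2 and 19.1 RPM in wild-type oocytes, with 0 reads in the control RNA, and the groups overlapped. Its near relative Nr5a1, the steroidogenic factor of granulosa and theca cells, had reads in 3 of 21 oocytes, at most 0.195 RPM. Of 10 partners and relatives listed, 5 reached 1 RPM in each oocyte, led by the corepressor gene Ncor1 (median 180.5 RPM) and the coactivator genes Ncoa3 (145 RPM), Ncoa2 (85.3 RPM) and Ncoa1 (29.0 RPM).

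Csf1r had reads in every oocyte, but its values moved with those of a gene that overlaps it. It lies on chromosome 18, 61105572 to 61132149 (plus strand), and stood at 4.35, 9.32 and 14.1 RPM in transgenic oocytes and at 8.28, 13.5 and 15.4 RPM in wild-type oocytes, against 106 RPM in the control RNA. The transgenic values reached lower, and the groups overlapped. Hmgxb3, a gene picked out after its values were seen, lies on the minus strand at 61131279 to 61177050. By the exons of GENCODE M21, whose ends differ slightly from the deposited positions, it shares 873 bases of exon with Csf1r. Reads there cannot be told apart where strand is not stated to be kept. Across the 21 oocytes Hmgxb3 was the gene most like Csf1r among the genes tested, with some symbols left out as stated below (Pearson's r = 0.86 of log2(RPM + 1), Spearman's rho = 0.89, and r = 0.91 without the 2 oocytes farthest from the median of Hmgxb3). Within an oocyte both values come from the same library, and this is a description. The ratio of Csf1r to Hmgxb3 was 0.288 to 0.678 in the oocytes and 1.95 in the control RNA. If the reads of Hmgxb3 (median 21.1 RPM) lay evenly over its 10865 bases of exon, 1.69 RPM would fall in the shared bases, against a Csf1r median of 10.6 RPM. The shared bases lie where both genes end, and whether reads lay evenly over Hmgxb3 is not known. How much of the Csf1r value came from Hmgxb3 was not tested. The ligand genes Csf1 (median 26.5 RPM) and Il34 (6.78 RPM) and the signalling genes Grb2 (18.5 RPM) and Cbl (8.67 RPM) reached 1 RPM in each oocyte, 4 of the 6 listed for this receptor. Pdgfrb, the next gene upstream, had 0 reads in all.

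**Figure D2:**
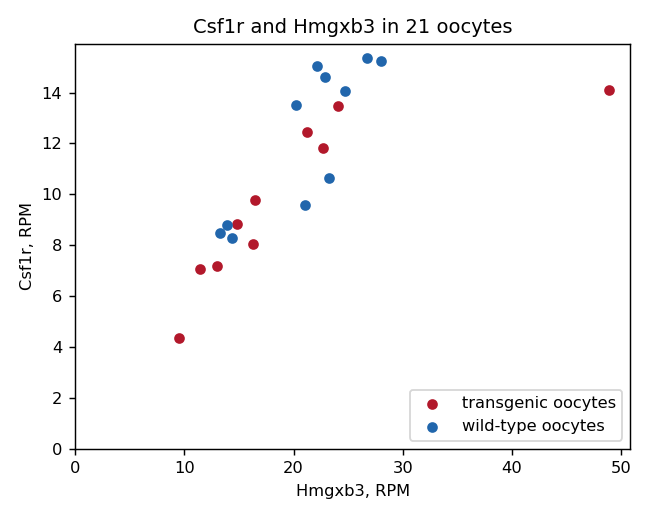
Csf1r against Hmgxb3 in each of the 21 oocytes, both in RPM, transgenic and wild-type oocytes in 2 colours. The 2 genes rise together (r = 0.86), and 1 transgenic oocyte lies apart at 48.9 RPM of Hmgxb3.

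Laptm5 lies on chromosome 4, 130913125 to 130936141 (plus strand), and was uneven. It stood at 2.91, 7.49 and 9.62 RPM in transgenic oocytes and at 1.91, 6.07 and 12.9 RPM in wild-type oocytes, a 6.77-fold range, against 41.6 RPM in the control RNA. The wild-type values spanned the transgenic ones. Of 9 relatives and partners listed, 7 reached 1 RPM in each oocyte. The relative Laptm4b had a median of 1228 RPM and Laptm4a of 277 RPM in the oocytes. The ubiquitin ligase gene Nedd4l stood at a median of 330.5 RPM and the lysosomal Lamp1 at 221 RPM.

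Cd68 lies on chromosome 11, 69664213 to 69666153 (minus strand), and was the lowest and least even of the 7. It stood at 0, 2.91 and 7.00 RPM in transgenic oocytes and at 0, 2.47 and 4.20 RPM in wild-type oocytes, against 6.90 RPM in the control RNA. The groups overlapped. In 2 oocytes, 1 of each genotype, there were 0 reads, where 3 reads are 0.0900 to 0.147 RPM. Its coefficient of variation was 67.2%, against 12.2% from counting, and 93.5% of the genes tested varied less on the log2 scale. Eif4a1, an abundant initiation factor gene on the same strand (median 236 RPM), ends 783 bases upstream; its r with Cd68 was 0.15 over 21 oocytes, as a description.

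Other genes of macrophages and leukocytes were mixed. Of 24 further genes of this kind in the table, 9 had 0 reads in all 21 oocytes, among them Ptprc, Tyrobp, Cd14, Lyz2 and Aif1 (named after their values were seen). The adaptor Tyrobp, which macrophage receptors signal through, stood at 9.76 RPM in the control RNA. Another 4 reached 1 RPM in each oocyte: the engulfment receptor gene Mertk (median 34.1 RPM), the mannose receptor gene Mrc1 (25.5 RPM), the transcription factor gene Irf8 (20.6 RPM) and C1qb (5.64 RPM). These 4 meet the same description as the 3 macrophage members, and were not among them.

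**Figure D3:**
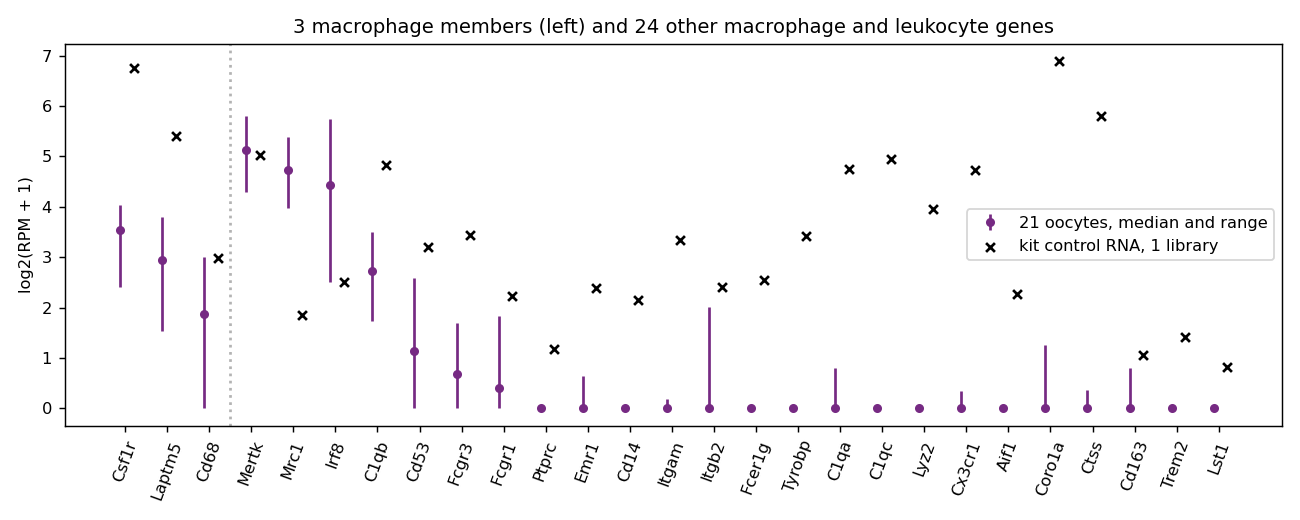
Level of 3 macrophage members and 24 other macrophage and leukocyte genes, as log2(RPM + 1), with the median and range over 21 oocytes (circles and lines) and the kit control RNA (crosses). Of the 24 other genes, 4 (Mertk, Mrc1, Irf8, C1qb) lie above 1 RPM in all oocytes, and 9 lie at 0 in all. Csf1r and Laptm5 also lie above 1 RPM in all, and Cd68 in 18.

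Cdh1 lies on chromosome 8, 106603351 to 106670246 (plus strand), and was the most abundant of the 7. It stood at 49.5, 105 and 268 RPM in transgenic oocytes and at 61.2, 87.3 and 124 RPM in wild-type oocytes, against 6.76 RPM in the control RNA. The groups overlapped, with the highest value in 1 transgenic oocyte of lane 1. The oocyte median of 97.5 RPM was 14.4 times the control. Its median of 21.3 RPKM exceeded that of 81.8% of the genes tested. Of 11 cadherin and catenin genes listed, 8 reached 1 RPM in each oocyte, led by the catenins Ctnnb1 (median 387 RPM) and Ctnna1 (226 RPM), with the junction gene Mllt4 at 254 RPM and Ctnnd1 at 58.3 RPM. Of 18 oviduct and epithelial genes, 4 reached 1 RPM in each oocyte: the splicing regulator gene Esrp1 (median 181 RPM), Cdh3 (9.34 RPM), Cldn4 (7.04 RPM) and Ocln (3.50 RPM). Epcam, an epithelial adhesion gene (3.54 RPM), did so in 20. Krt19, Cldn3, Wfdc2, Pax8 and Foxj1 had 0 reads in all oocytes.

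Granulosa and cumulus genes outside the members were mixed in the same way. Of 32 listed, the 3 carry-over markers included, 4 reached 1 RPM in each oocyte: the protease inhibitor gene Serpine2 (median 921 RPM), the transcription factor genes Gata4 (20.1 RPM) and Runx2 (3.98 RPM), and Greb1 (4.67 RPM). Foxl2, Areg, Ereg, Npr2 and Pgr had 0 reads in all 21. Of the 27 with reads in any oocyte, 11 were highest in the wild-type oocyte of lane 2 with the carry-over markers, these 3 markers included. Among the other such genes, named after their values were seen, were Hsd3b1 at 7.04 RPM and Fst at 4.29 RPM. The remaining 16 were higher in another oocyte, and 8 of them, among them Fshr and Lhcgr, had 0 reads in that one. Of 13 genes of theca, stroma and endothelium, 8 had 0 reads in all oocytes, and 1 reached 1 RPM in each, the endothelial adhesion gene Pecam1 (median 71.0 RPM). Tek, Kdr and Dcn followed with medians of 4.42, 3.43 and 3.26 RPM. Of 5 blood genes, 4 had 0 reads in all oocytes.

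The members did not move together from oocyte to oocyte. Over their 21 pairs Pearson's r of log2(RPM + 1) ran from -0.48 to 0.41 with a median of -0.03, beside a median of 0.0063 over all pairs of genes tested. The genes most like each were, over 21 oocytes, Tbccd1, Grasp and Smyd3 for Cyp19a1 (r = 0.75, 0.74 and 0.73), Cnga2, Ccdc141 and Manea for Kitl (0.70, 0.69 and 0.68), and Ubac1, Asnsd1 and Rlim for Nr5a2 (0.78, 0.74 and 0.73). They were Hmgxb3, Ap1b1 and Scamp5 for Csf1r (0.86, 0.81 and 0.75), Polrmt, Nek10 and Nrsn2 for Laptm5 (0.67, 0.66 and 0.66), Wars2, Npnt and Zranb3 for Cd68 (0.69, 0.68 and 0.64), and Unc5a, Samd4b and Icmt for Cdh1 (0.86, 0.86 and 0.85). For each member these are the 3 highest r among the genes ranked, so their size is a description of these 21 oocytes. The ranking covered the genes tested but passed over repeated symbols. It also passed over names containing Rik, names made of Gm and a number, and names with the -ps tag.

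The genotype comparison asked whether raised anti-Müllerian hormone changed these transcripts, and no member passed. Cyp19a1 averaged 68.6 ± 9.89 RPM in transgenic females, against 58.8 ± 6.95 RPM in the wild type (SD, n = 4 each). It was higher in 4 of 4 lanes, by a log2 of 0.428, 0.353, 0.0776 and 0.0103 (lanes 1 to 4). Csf1r averaged 9.90 ± 1.59 RPM in transgenic females, against 11.8 ± 2.36 RPM in the wild type, and was lower in 3 of 4 lanes. In limma on female means the log2 differences were 0.22 ± 0.17 (SE) for Cyp19a1 (95% interval -0.15 to 0.58, Benjamini-Hochberg adjusted p = 0.805) and -0.26 ± 0.22 for Csf1r (-0.74 to 0.22, 0.822). Those of Kitl, Nr5a2, Laptm5, Cd68 and Cdh1 were 0.033, 0.069, 0.22, 0.10 and 0.19, with adjusted p of 0.979, 0.948, 0.876, 0.939 and 0.873. Of 10987 genes tested 0% were called at an adjusted p under 0.05 and 6.81% had an unadjusted p under 0.05 (2.78% higher, 4.03% lower); of the 7 members, 0 did by either rule. Cdh1 averaged 117.5 ± 47.4 RPM in transgenic females, against 95.3 ± 17.4 RPM in the wild type, and its log2 difference lay between 0.00788 (without the transgenic female of lane 1) and 0.44 (without that of lane 2) when each female was left out in turn. Positive differences were found in 6 of 7 members and 47.8% of all genes tested. The intervals reach a log2 of 0.87 for Laptm5 and -0.74 for Csf1r, so with 4 females in each group true differences up to those sizes are not excluded.

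**Figure D4:**
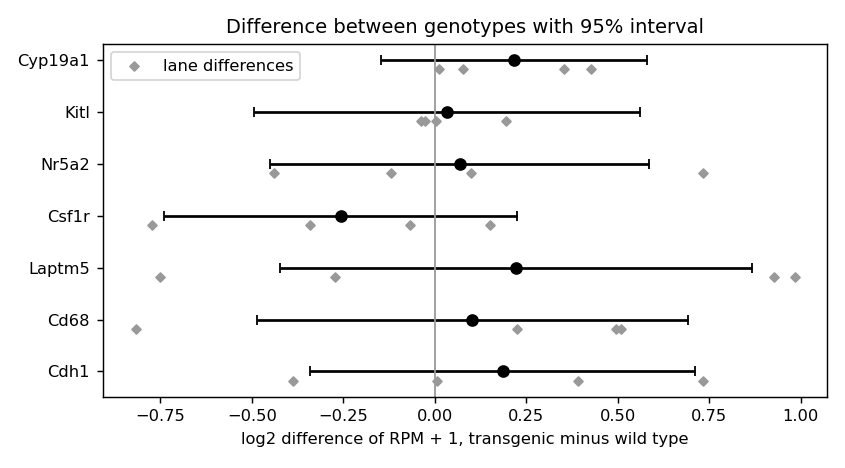
Log2 difference of RPM + 1, transgenic minus wild type, for each member, with its 95% interval from limma (circle and bar) and the difference within each of the 4 lanes (diamonds). All 7 intervals include 0, and Cyp19a1 is positive in all 4 lanes, by only 0.0103 in lane 4.

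Among the genes of the lists, 0 passed. Nedd4, named after its values were seen, averaged 29.6 ± 1.90 RPM in transgenic females, against 18.5 ± 1.82 RPM in the wild type (log2 difference 0.64, limma adjusted p = 0.724), and Adam8 averaged 6.10 ± 1.86 RPM in transgenic females, against 3.36 ± 0.745 RPM in the wild type (0.86, adjusted p = 0.724). The summed carry-over markers averaged 0 RPM per transgenic female, against 2.16 ± 4.26 RPM per wild-type female (two-sided exact permutation over females, p = 0.429). Without tied values 0.0286 would be the smallest p possible. Most females were at 0 and all reads were in wild-type females, so 0.429 is the smallest p these values can give. The test could not have called a difference, and none is concluded from it.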

How the data were processed

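Messenger RNA of single oocytes was amplified by SMART-Seq v4 and made into ThruPLEX libraries, per the labels' protocols. The labels list 24 samples; 1 transgenic oocyte of lane 1 and a water-only library were not analysed here. The submitters' processing notes list HISAT2, Trim Galore and FastQC, and mm39 (GRCm39) as build, all without versions. The counting tool, strand setting and annotation were not given in the sources used here. Positions were read as GRCm38, since 99.74% of the 25035 gene IDs matched to GENCODE M21 overlapped that gene. The authors deposited log2 values for each library; the table is called RPKM, but the values are log2 RPM, with no division by gene length. Genes with 0 reads carry a fill-in equal to 0.9 reads, and of 256342 values below 2000 reads 100% came out within 0.02 of a whole read. RPM was recomputed from these reads and the library total; RPKM divided it by the M21 exon length. Repeated symbols were left out of backgrounds.

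The members and lists were chosen with earlier results of these data known. Counts of listed genes at 1 RPM or at 0 reads are descriptions. They are given without the share of all genes that do the same, and were not compared with it. Oocytes of a female were averaged as log2(RPM + 1), which shrinks fold changes of low genes, and the 10987 genes averaging 1 RPM or more were tested with limma 3.58.1 in R 4.3.3, transgenic against wild type, two-sided, with Benjamini-Hochberg adjustment over all genes and a threshold of 0.05. Each lane holds 1 female of each genotype, per the labels' batch field, so the lane pairs the females. Deviations of lane mates from group means had r of -0.04, 0.084, 0.34 and 0.32 (lanes 1 to 4); the median of pairs from different lanes was -0.055. The summed carry-over markers were compared with an exact permutation test over 70 arrangements. The fit was tested on simulated data. Counts of listed genes cover only symbols with an entry in the deposited values. These were 17 of 18 steroid genes, 11 of 12 cadherin and catenin genes, and 9 of 10 relatives and partners of Laptm5. For the Csf1r list they were 6 of 7, for blood 5 of 7, and for macrophages and leukocytes 24 of 26. Genes named by rule are the members, the carry-over markers, the 4 genes of highest median in each list, and the 3 most like each member; all others, neighbours and genes at 0 reads included, were named after their values were seen.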

Additional observations from a re-analysis of the deposited data

Results flagged for a closer look

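A sample far from its group was found in 4 of 24 groups of oocytes or female means. Chance gives about 1 in 20 groups, but that rate does not hold where nearly all values are 0, as for the carry-over markers. Cdh1 in 1 transgenic oocyte of lane 1 stood at 268 RPM, with the next highest of the 10 transgenic oocytes at 130 RPM. The mean of the wild-type female of lane 2 stood apart for Inha at 4.57 RPM (next 0.101 RPM), for Tnfaip6 at 2.80 RPM (next 0 RPM) and for Ptx3 at 1.18 RPM (next 0 RPM), all through the same oocyte.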

How the results depend on the processing

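Of 19 alternatives (18 for Cd68, which the filter at 5 RPM removes), none called a member. A fit to single oocytes (random female effect, replicate block for lane) called 12 genes, and leaving out each female gave 0 to 1 (1 without the transgenic female of lane 1); with the lane as replicate block on female means 0 genes passed and the log2 difference of Cyp19a1 was 0.217. Cyp19a1, Csf1r, Laptm5 and Cdh1 kept their direction in all alternatives, but their log2 differences moved, Cyp19a1 between 0.154 and 0.327, Csf1r between -0.395 and -0.16, Laptm5 between 0.0422 and 0.404 and Cdh1 between 0.00788 and 0.44. Without 1 female each, Kitl ran from -0.109 to 0.159, Nr5a2 from -0.0930 to 0.205 and Cd68 from -0.0286 to 0.351; limma-voom on the recovered reads summed per female called 0 genes and gave Nr5a2 -0.00407. The cause was not tested. The summed level over all granulosa and cumulus markers, of which Serpine2 is the largest part, differed by 33.5 RPM with p = 0.80, opposite to the 3 carry-over markers. Counts below 3 reads an oocyte are not resolved.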

Other observations

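The 3 complement C1q genes, which macrophages express together, differed in the oocytes. C1qb was at 2.32 to 10.3 RPM in all 21 oocytes, C1qa had reads in 2 of 21, at most 0.748 RPM, and C1qc had 0 reads in all; in the control RNA the 3 stood at 27.6, 26.0 and 29.8 RPM. The haemoglobin genes Hba-a1, Hba-a2 and Hbb-b1 had 0 reads in every oocyte; the control RNA held 32.9, 24.7 and 74.0 RPM of them.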
